A study of Arabidopsis thaliana with 3 samples.

Results

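The 36 genes described here encode oil body proteins, late embryogenesis abundant (LEA) proteins and other proteins of the maturing Arabidopsis seed, together with the transcription factors and dormancy genes that act on them. They were taken from a list of loci by their known function, with no threshold on a measured value. All 36 were found among the 33559 loci of the expression table. The list was chosen with earlier results of these data known. Its shares, set beside those of all loci below, are therefore a description and not independent support. They fall into 8 regulators, 7 oil body proteins, 18 LEA proteins and 3 other seed proteins. Poly(A) RNA of whole 14-day-old seedlings of the Col ecotype was sequenced in 3 libraries, 1 each for the wild type (Col), mms19-1 and abo4, from plants grown on MS agar in long days at one temperature. MMS19 is a component of the cytosolic iron-sulfur cluster assembly machinery, and mms19-1 is a T-DNA insertion line. The labels name mms19-1, whereas the study's text names mms19-1 in one place and mms19-2, another insertion line, in another for the same RNA-seq, so which line the library holds is not certain. ABO4 is the catalytic subunit of DNA polymerase epsilon, and the study describes its abo4 line as a weak missense allele (the genotype label spells it abo-4). The groups shared ecotype, age and medium, no agent was applied, and both mutants were read against the same wild-type library. With 1 library per genotype no difference has a replicate check, no p-value is given, and each mutant stands as a single line.

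Seed maturation genes are switched on late in embryo development, when the embryo stores oil and protein and becomes tolerant of drying. The B3 transcription factors ABI3, FUS3 and LEC2 and the CCAAT-binding subunit LEC1 drive this programme, and the bZIP factor ABI5 and the AP2 factor ABI4 carry the abscisic acid signal into it. After germination the programme is silenced by chromatin-based repression, so that vegetative tissue normally holds little of these transcripts, although several LEA genes are also induced by abscisic acid or drought in leaves and roots. B3 factors bind the RY motif, and ABI5-type bZIP factors bind abscisic acid response elements (ABREs) with an ACGTG core, of which the G-box is a palindromic form.

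Promoters are shown for OLEO1, the EM1 and EM6 pair and the TIP3 pair, picked by hand as examples of their groups. LEA7, AT3G17520 and FUS3 were picked by hand among members with high levels or large ratios between libraries. Others with such values, as LEA4-5 and AT3G53040, are not shown. These 250-base windows were read for the elements that the regulators in the list recognise. Each window ends at the base before the annotated gene start in the TAIR10.1 genome of RefSeq, reads 5′ to 3′ on the strand of the gene, and has in capitals every CATGCA or TGCATG (RY), every ACGTG or CACGT (ABRE core) and every CACGTG (G-box). A G-box holds an ABRE core on both strands and was counted as 2 cores. The OLEO1 window lies at chr4:12900180-12900429 on the plus strand, that of EM1 at chr3:19214472-19214721 on the plus strand, and that of EM6 at chr2:16780369-16780618 on the minus strand. The LEA7 window is chr1:19619474-19619723 on the plus strand and the AT3G17520 window is chr3:6000448-6000697 on the minus strand. FUS3 was read from chr3:9856213-9856462 on the minus strand, TIP3;1 from chr1:27521694-27521943 and TIP3;2 from chr1:6129775-6130024, both on the plus strand.
OLEO1: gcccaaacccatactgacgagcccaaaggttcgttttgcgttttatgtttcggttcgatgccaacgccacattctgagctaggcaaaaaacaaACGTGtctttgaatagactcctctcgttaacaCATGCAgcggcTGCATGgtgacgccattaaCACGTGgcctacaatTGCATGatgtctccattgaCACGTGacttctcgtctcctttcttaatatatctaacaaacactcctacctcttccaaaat
EM1: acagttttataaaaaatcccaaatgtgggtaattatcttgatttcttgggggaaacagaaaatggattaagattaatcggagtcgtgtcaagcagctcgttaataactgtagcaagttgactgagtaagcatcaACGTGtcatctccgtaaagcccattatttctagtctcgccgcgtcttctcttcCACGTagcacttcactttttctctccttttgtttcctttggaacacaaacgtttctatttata
EM6: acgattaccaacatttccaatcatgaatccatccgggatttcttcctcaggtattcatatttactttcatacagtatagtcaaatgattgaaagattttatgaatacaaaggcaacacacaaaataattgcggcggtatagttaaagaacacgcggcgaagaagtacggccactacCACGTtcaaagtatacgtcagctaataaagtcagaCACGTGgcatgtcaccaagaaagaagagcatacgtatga
LEA7: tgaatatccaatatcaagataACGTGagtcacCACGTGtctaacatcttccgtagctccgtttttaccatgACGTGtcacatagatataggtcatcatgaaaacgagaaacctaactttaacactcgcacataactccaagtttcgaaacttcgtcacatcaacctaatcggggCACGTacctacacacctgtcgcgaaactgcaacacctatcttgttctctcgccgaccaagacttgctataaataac
AT3G17520: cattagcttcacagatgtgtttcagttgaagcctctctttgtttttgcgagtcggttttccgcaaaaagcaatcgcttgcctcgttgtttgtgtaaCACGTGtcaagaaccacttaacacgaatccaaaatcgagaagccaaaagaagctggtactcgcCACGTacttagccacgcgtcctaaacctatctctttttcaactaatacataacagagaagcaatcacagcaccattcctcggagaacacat
FUS3: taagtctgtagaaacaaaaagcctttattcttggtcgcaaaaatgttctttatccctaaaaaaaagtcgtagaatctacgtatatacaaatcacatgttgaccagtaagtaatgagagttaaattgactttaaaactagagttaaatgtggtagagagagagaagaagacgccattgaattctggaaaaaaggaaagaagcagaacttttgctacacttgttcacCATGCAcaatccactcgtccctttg
TIP3;1: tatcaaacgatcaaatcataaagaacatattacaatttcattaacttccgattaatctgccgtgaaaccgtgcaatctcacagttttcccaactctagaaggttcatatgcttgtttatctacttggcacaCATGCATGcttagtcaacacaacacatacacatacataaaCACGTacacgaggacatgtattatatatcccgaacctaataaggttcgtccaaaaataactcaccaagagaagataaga
TIP3;2: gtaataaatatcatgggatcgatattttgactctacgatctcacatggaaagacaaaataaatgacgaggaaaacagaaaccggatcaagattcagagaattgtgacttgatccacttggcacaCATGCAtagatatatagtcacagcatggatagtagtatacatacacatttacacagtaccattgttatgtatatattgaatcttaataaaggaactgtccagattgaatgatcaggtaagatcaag

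The oleosin OLEO1, which coats oil bodies and keeps them from fusing, had 3 RY motifs and 5 ABRE cores in its window, 4 of the cores within 2 G-boxes. EM1 and EM6, the small hydrophilic LEA proteins of the dry embryo, had 2 and 3 ABRE cores and no RY motif. LEA7 had 5 ABRE cores and AT3G17520 had 3, again with no RY motif, while the seed vacuole aquaporins TIP3;1 and TIP3;2 had 2 and 1 RY motifs. In TIP3;1 the pair of RY motifs overlap as CATGCATG.

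Over all 36 members, 16 windows (44.4%) held an RY motif, beside 8.43% of the windows of all 27443 protein-coding genes. An ABRE core was found in 25 windows (69.4%), beside 22.9% of all genes, and a G-box in 17 (47.2%), beside 6.49%. Both an RY motif and an ABRE core were present in 11 windows (30.6%), beside 2.22% of all genes. All 7 oil body windows held an RY motif, 5 of them an ABRE core as well and 2 a G-box. Of the 18 LEA windows, 6 held an RY motif, 17 an ABRE core, 5 both and 13 a G-box, and no test was made between the groups. The exception among the LEA genes was ECP31, with 1 RY motif and no ABRE core. Of the 8 regulator windows, 1 (12.5%) held an RY motif, beside 8.43% of all genes. Likewise 1 (12.5%) held an ABRE core and a G-box, beside 22.9% of all genes for the core and 6.49% for the G-box. FUS3 had 1 RY motif, ABI5 had 7 ABRE cores and 3 G-boxes, and the other 6 had none of the 3 elements. These are matches of letters in a fixed window, counted without reference to expression.

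**Figure D1:**
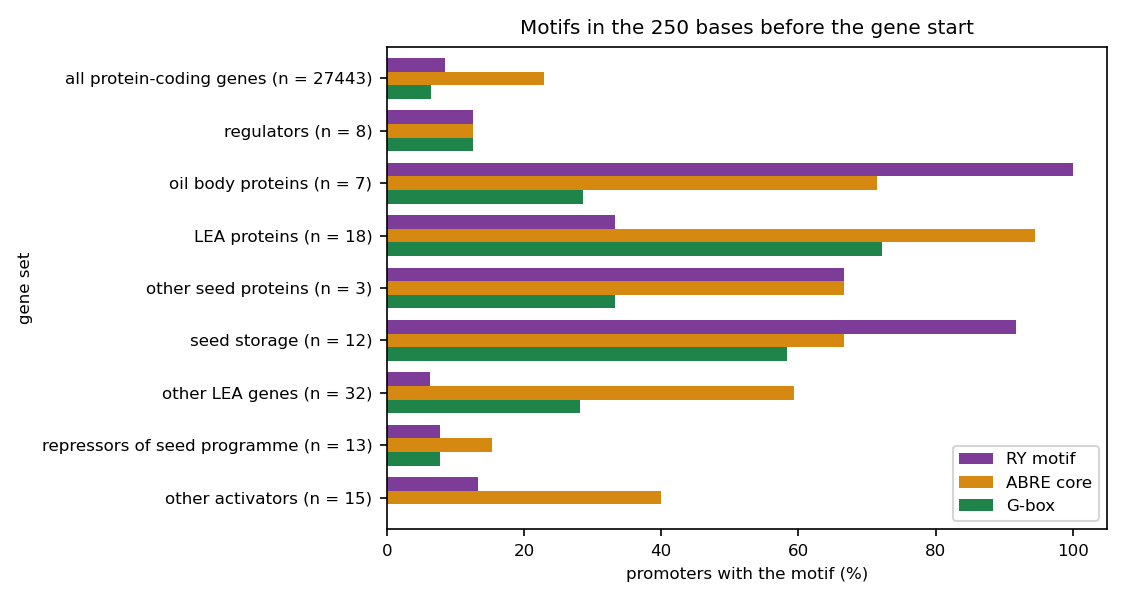
Share of promoter windows (x axis, in percent) that hold an RY motif, an ABRE core or a G-box, for all protein-coding genes, the 4 groups of members and 4 related gene lists (y axis, with the number of genes). Oil body genes reached 100% for the RY motif and LEA genes 94.4% for the ABRE core, beside 8.43% and 22.9% of all genes.

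In the seedlings the members were low. Levels are FPKM, fragment numbers divided by transcript length and by library size, a scale on which genes of different length can be compared. Of the 36 members, 32 were above 0 in at least 1 library and 31 in all of them, and 14 averaged 1 FPKM or more. The median over these 32 members was 0.878 FPKM in Col, 1.35 in mms19-1 and 0.432 in abo4, whereas the median over the 26416 loci above 0 in at least 1 library was 7.74, 7.56 and 7.61 FPKM in the same order. LEC1, ABI4, HSD1 and ECP31 were listed at 0 in every library. HSD1, the oil body steroleosin, is present in the genome as near-identical copies, and all 1285 of its 45-base stretches occurred at more than 1 place, while no such stretch was found in the exons of the other 35 members. Its copy AT5G50700 was also listed at 0, as were all 279 loci of the organelle genomes, so a listed 0 is not read as absence.

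Because the deposited values keep the steps of single reads, the number of reads behind each member could be recovered. The members together drew 2933 reads in Col, 5275 in mms19-1 and 1444 in abo4, at relative depths of 1, 0.916 and 0.886. The reads of DOG1, AT3G17520, LEA4-5, LEA7 and LEA4-1 were among several near solutions and those of AT5G44310 were rounded, so these are approximate. The others are not certain either, since the annotated transcript length gave other numbers for some. In Col it gave 140 against 92 reads for LEA4-2, 149 against 124 for SOM, 70.1 against 59 for FUS3 and 23.1 against 28 for EM1. Ratios of reads below are scaled by depth and carry 95% intervals, exact only if the recovered reads are right. These intervals cover counting error only and not the spread between plants or library preparations. The log2 ratios were instead taken on FPKM + 0.1, a scale that understates the difference of low genes, and the limit used was 2-fold, a log2 ratio beyond 1 or -1.

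**Figure D2:**
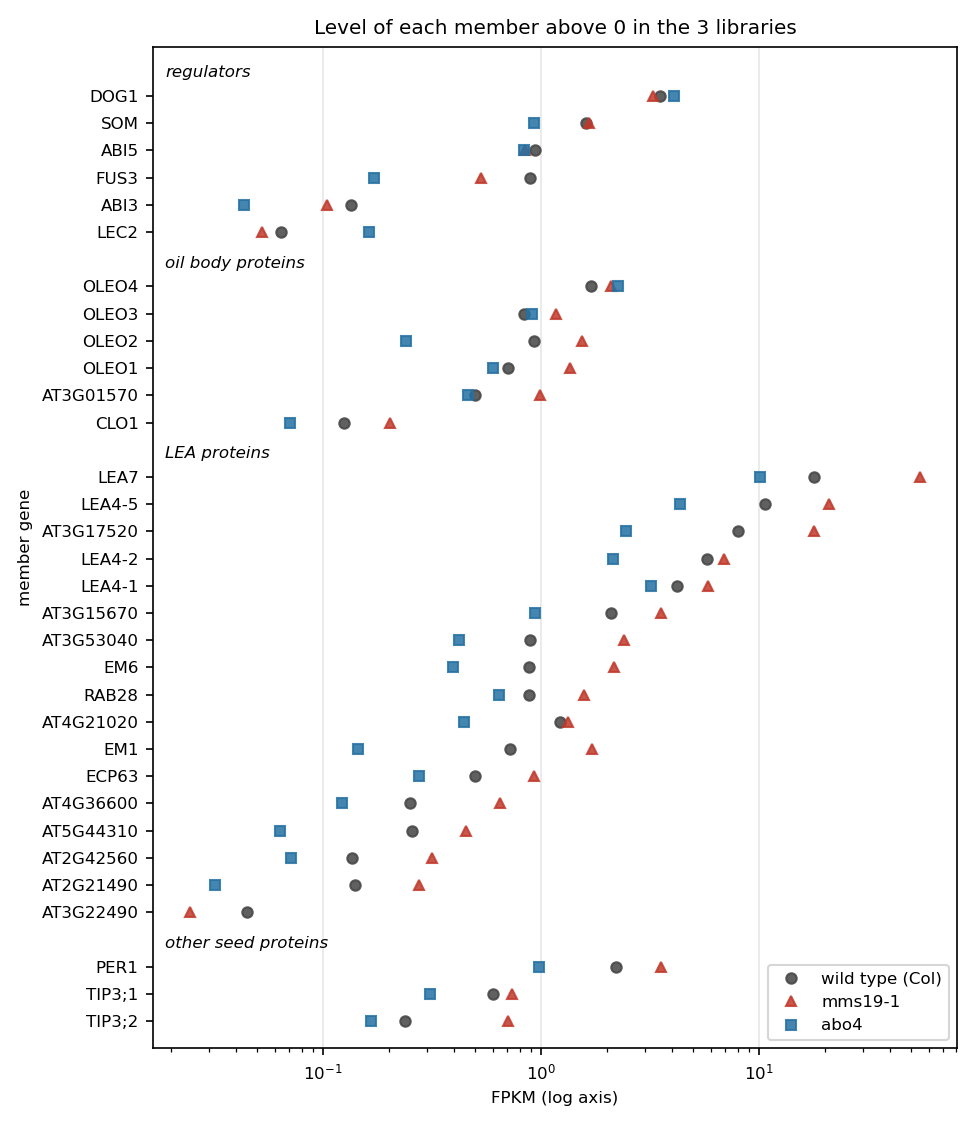
FPKM of each of the 32 members above 0 (y axis, by group) in the wild type, mms19-1 and abo4 on a log axis (x axis), 1 point per library, with points at 0 not drawn. In the LEA rows the abo4 point lies leftmost and the mms19-1 point rightmost except at AT3G22490, where only wild type and mms19-1 are drawn and mms19-1 is the lower.

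The members as a whole were higher in mms19-1 and lower in abo4 than in the wild type. In mms19-1, 26 of the 32 members above 0 (81.2%) were higher by any amount, beside 47.3% of all loci, and 7 (21.9%) were higher by over 2-fold, beside 2.45% of all loci. None was lower by over 2-fold, beside 1.69% of all loci. In abo4, 28 of 32 (87.5%) were lower by any amount, beside 48.5% of all loci, and 10 (31.2%) were lower by over 2-fold, beside 2.63%, with 0 higher by over 2-fold, beside 3.94%. The median log2 ratio of the members was 0.65 in mms19-1 and -0.73 in abo4, while that of all loci was -0.01 and 0.01.

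Loci with a mean of 0.1 to 30 FPKM gave shares close to those of all loci. Among the 29 members in that range, 7 were higher by over 2-fold in mms19-1 and 10 lower in abo4, whereas 2.68% and 2.93% of all loci in it were. The range is wide, and the share depends on level. Among loci with a mean of at least 1 FPKM it was 1.03% for higher in mms19-1 and 1.90% for lower in abo4. Only 14 members had such a mean. No share was computed for the loci below it, where most members lie.

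The count of members past 2-fold in either mutant depends on the value added. With 1 FPKM added in place of 0.1, 2 members stayed past the limit in mms19-1 and 3 in abo4. No share over all loci is given at that setting. The members nearest the limit were AT4G36600 at a log2 ratio of 1.09 and LEA4-5 at 0.96 in mms19-1, and AT3G15670 at -1.08 and EM6 at -0.98 in abo4.

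The regulators as a group were not higher in mms19-1. Of the 6 above 0, 5 were lower and 1 higher there, none past 2-fold, with a median log2 ratio of -0.12. In abo4, 4 were lower and 2 higher, 1 past 2-fold, with a median of -0.43. Among all loci, 52.7% were lower in mms19-1, 1.69% past 2-fold, and 48.5% were lower in abo4, 2.63% past 2-fold. The summed level of the 8 was 7.18 FPKM in Col, 6.48 in mms19-1 and 6.22 in abo4.

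FUS3 was the regulator that differed most. Its level was 0.894 FPKM in Col, 0.529 in mms19-1 and 0.171 in abo4, from 59, 32 and 10 reads. The ratio of reads was 0.592 in mms19-1 (95% interval 0.373 to 0.926) and 0.191 in abo4 (0.0873 to 0.377), and the log2 ratios were -0.66 and -1.87. FUS3 was lower in both mutants, which share the wild-type library. ABI3, the B3 factor that gives the seed its abscisic acid response, was low, with 0.134, 0.105 and 0.0434 FPKM from 21, 15 and 6 reads, and its interval in abo4 was 0.107 to 0.826 around a ratio of 0.323.

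LEC2 and DOG1 were the regulators with their highest level in abo4. LEC2, a B3 factor that starts the embryo programme, was at 0.0641 FPKM in Col, 0.0525 in mms19-1 and 0.163 in abo4, but these rest on 4, 3 and 9 reads and the abo4 interval was 0.709 to 11.3. ABI5, the bZIP factor that activates the Em genes, was near-even at 0.941, 0.847 and 0.836 FPKM, with ratios of 0.901 (0.64 to 1.26) and 0.889 (0.629 to 1.25). DOG1, which sets the depth of seed dormancy, was the most abundant regulator, at 3.53, 3.28 and 4.08 FPKM. SOM, a CCCH zinc finger protein that represses germination in the dark, was level in the wild type and mms19-1 at 1.61 and 1.66 FPKM and lower in abo4 at 0.926, a ratio of 0.574 (0.417 to 0.783).

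All 6 oil body genes above 0 were higher in mms19-1, none past 2-fold, with log2 ratios of 0.28 to 0.87 and a median of 0.55. In abo4 they split, with 4 lower and 2 higher and a median of -0.15. The shares of all loci were 47.3% higher in mms19-1, 2.45% past 2-fold, and 48.5% lower in abo4, 2.63% past 2-fold. Their summed level was 4.81 FPKM in Col, 7.36 in mms19-1 and 4.54 in abo4.

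OLEO1 was at 0.709 FPKM in Col, 1.35 in mms19-1 and 0.600 in abo4, from 28, 49 and 21 reads, a ratio of 1.91 (1.18 to 3.16) in mms19-1 and 0.847 (0.457 to 1.55) in abo4. OLEO2, a second seed oleosin, was at 0.934, 1.54 and 0.241 FPKM, from 35, 53 and 8 reads, and was the oil body gene past 2-fold in abo4, with a ratio of 0.258 (0.103 to 0.566). The abo4 intervals of OLEO2 and OLEO4 did not overlap. This pair was picked after its values were seen, as the lowest and highest abo4 ratios of the group, so it is no test of a difference. OLEO3 was at 0.841, 1.18 and 0.911 FPKM and OLEO4, the most abundant, at 1.70, 2.09 and 2.25 FPKM, and for both genes every interval against the wild type held 1, that of OLEO4 in abo4 being 0.935 to 1.88. The oleosin AT3G01570 and the caleosin CLO1, a calcium-binding oil body protein, reached at most 0.989 and 0.204 FPKM.

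The LEA genes held most of the summed level of the members. Of the 17 above 0, 16 were higher and 1 lower in mms19-1, with 6 past 2-fold and a median log2 ratio of 0.78. In abo4 all 17 were lower, with 7 past 2-fold and a median of -0.93. Of all loci, 47.3% were higher in mms19-1, 2.45% past 2-fold, and 48.5% were lower in abo4, 2.63% past 2-fold. Their summed level was 54.7 FPKM in Col, 122 in mms19-1 and 25.8 in abo4, 2.24 and 0.472 times the wild type.

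LEA7, a LEA protein that is disordered in water and folds into helices on drying, was the most abundant member in each library. Its level was 17.9 FPKM in Col, 55.1 in mms19-1 and 10.1 in abo4, from 628, 1775 and 315 reads. The ratio was 3.09 in mms19-1 (2.82 to 3.38) and 0.566 in abo4 (0.493 to 0.649), with log2 ratios of 1.62 and -0.81. LEA7 made up 25.6% of the summed level of all members in Col, 39.1% in mms19-1 and 26.6% in abo4, and without it the sum was still 1.66 times the wild type in mms19-1 and 0.538 times in abo4.

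LEA4-5, which is induced by water deficit in vegetative tissue, followed at 10.7 FPKM in Col, 21.0 in mms19-1 and 4.35 in abo4. Its ratio was 1.96 in mms19-1 (1.73 to 2.22), just within 2-fold, and 0.406 in abo4 (0.333 to 0.494). AT3G17520 was at 8.06, 18.0 and 2.45 FPKM, higher in mms19-1 and lower in abo4, with ratios of 2.23 (1.99 to 2.50) and 0.304 (0.247 to 0.373). EM1, at 0.718, 1.71 and 0.145 FPKM, rested on 28, 61 and 5 reads, with ratios of 2.38 (1.50 to 3.86) and 0.202 (0.0608 to 0.529). EM6, its relative, was at 0.878, 2.16 and 0.397 FPKM, a ratio of 2.46 (1.42 to 4.39) in mms19-1 and 0.452 (0.172 to 1.07) in abo4, the second interval holding 1.

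The other LEA genes past 2-fold in mms19-1 were AT3G53040 and AT4G36600. AT3G53040 was at 0.891 FPKM in Col, 2.42 in mms19-1 and 0.419 in abo4, with a ratio of 2.71 (2.05 to 3.62) in mms19-1. AT4G36600 was at 0.252, 0.649 and 0.122 FPKM, with a ratio of 2.57 (1.34 to 5.20). In abo4 the others past 2-fold were AT3G15670, LEA4-2, AT4G21020 and AT5G44310. AT3G15670 was at 2.10, 3.55 and 0.937 FPKM, the abo4 ratio being 0.447 (0.299 to 0.657).

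LEA4-2 and AT4G21020 were lower in abo4, while their mms19-1 intervals held 1. LEA4-2 was at 5.80 FPKM in Col, 6.95 in mms19-1 and 2.13 in abo4, with ratios of 1.20 (0.895 to 1.61) and 0.368 (0.235 to 0.561). AT4G21020 was at 1.23, 1.34 and 0.446 FPKM, with ratios of 1.09 (0.748 to 1.59) and 0.364 (0.205 to 0.619). AT5G44310 had 14, 23 and 3 reads, for 0.257, 0.452 and 0.0637 FPKM. LEA4-1, of the same family as LEA4-2, was at 4.20, 5.85 and 3.19 FPKM. It lay closer to the wild type than LEA4-2 in abo4, with a ratio of 0.759 (0.595 to 0.965). In mms19-1 it lay further from the wild type, with a ratio of 1.39 (1.14 to 1.71).

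Among the remaining LEA genes, RAB28, at 0.879, 1.58 and 0.642 FPKM, had intervals that held 1 in both mutants. ECP63, AT2G42560 and AT2G21490 lay between 0.0318 and 0.925 FPKM, each highest in mms19-1 and lowest in abo4. AT3G22490 had 2, 1 and 0 reads, too few to compare, and is the neighbour of ECP31, which was listed at 0.

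PER1, a peroxiredoxin of the embryo and aleurone, was at 2.21 FPKM in Col, 3.56 in mms19-1 and 0.978 in abo4, with ratios of 1.61 (1.24 to 2.10) and 0.442 (0.296 to 0.650). TIP3;2 was past 2-fold in mms19-1, at 0.239, 0.703 and 0.166 FPKM from 13, 35 and 8 reads, a ratio of 2.94 (1.52 to 6.05). TIP3;1, its close relative, was at 0.603, 0.738 and 0.310 FPKM, a ratio of 1.22 (0.745 to 2.02) in mms19-1. The intervals of the pair overlap.

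**Figure D3:**
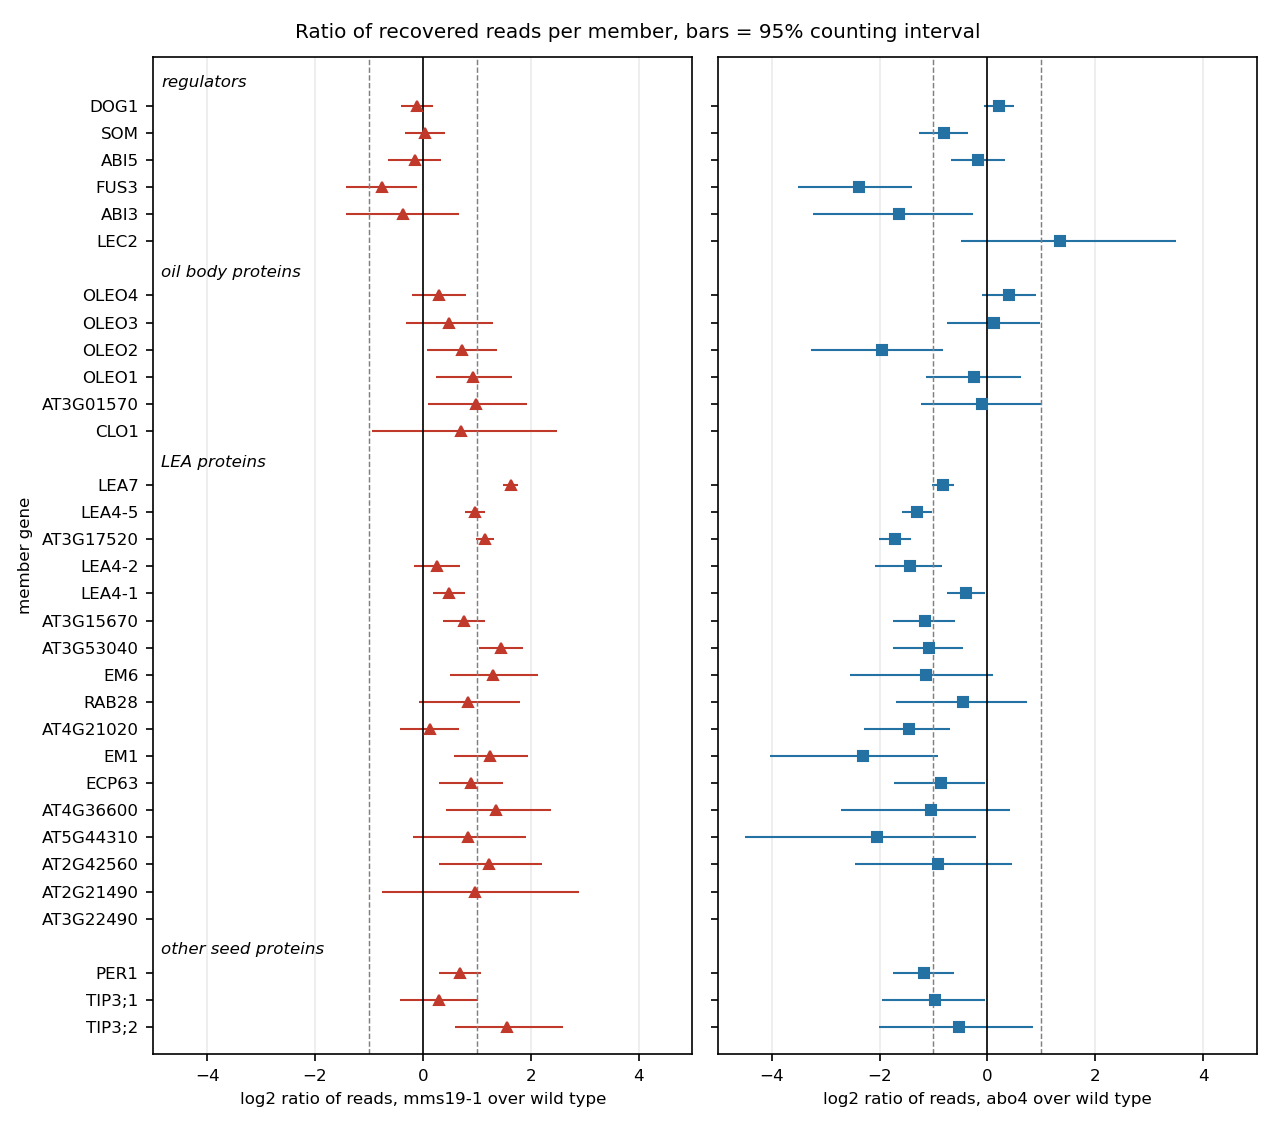
Ratio of recovered reads of mms19-1 (left) and abo4 (right) to the wild type on a log2 scale (x axis), per member (y axis), for members with at least 10 reads in the 2 libraries together, with 95% counting intervals as bars and the 2-fold limits dashed. LEA7 lies furthest from 0 in the left panel at a ratio of 3.09, and FUS3 and AT3G17520 lie left of the lower limit in the right panel at 0.191 and 0.304.

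Compared directly, abo4 was lower than mms19-1 for 29 of the 32 members, beside 45.8% of all loci, and for 21 (65.6%) by over 2-fold, beside 3.31% of all loci. The median log2 ratio was -1.34. Among the LEA genes all 17 were lower in abo4, 15 past 2-fold. Among members with at least 50 reads over the 3 libraries, EM1 had the lowest ratio at 0.0848 (0.0266 to 0.209), followed by AT3G17520 at 0.137 (0.112 to 0.165). The members higher in abo4 were LEC2, DOG1 and OLEO4, 0 of them past 2-fold on FPKM + 0.1, beside 3.65% of all loci.

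Related gene lists were read in the same way. For reference, 2.45% of all loci were higher past 2-fold in mms19-1, and 2.63% were lower and 3.94% higher in abo4. By any amount, 47.3% of all loci were higher in mms19-1 and 48.5% lower in abo4. Of the 12 seed storage protein genes, all 12 were higher in mms19-1, 6 past 2-fold with a median log2 ratio of 1.06, and 9 of the 11 above 0 in wild type or abo4 were lower in abo4, 3 past 2-fold with a median of -0.90. Their summed level was 18.3 FPKM in Col, 41.7 in mms19-1 and 10.9 in abo4. Of 13 genes for repressors of the seed programme, such as the B3 repressor VAL1, the chromatin remodeller PKL and the Polycomb methyltransferase CLF, none passed 2-fold in either mutant, with log2 ratios of -0.18 to 0.13 in mms19-1 and -0.39 to 0.24 in abo4. Of 14 other activators above 0 none passed 2-fold either, with median log2 ratios of -0.03 and -0.26. The highest of them in Col and mms19-1, ABF3, an abscisic acid-responsive bZIP factor, was at 72.9, 79.0 and 44.8 FPKM. In abo4 bZIP25 was slightly above it, at 45.6 FPKM.

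LEA genes outside the members, 32 genes of which 28 were above 0, had medians of 0.16 and -0.05. In them 3 (10.7%) were higher past 2-fold in mms19-1, beside 2.45% of all loci, and 4 (14.3%) lower in abo4, beside 2.63%. Those at a mean of 1 FPKM or more were 3 genes. AT3G02480 was at 21.1, 69.7 and 8.05 FPKM, the dehydrin RAB18 at 129, 222 and 40.5 FPKM, and M17 at 0.928, 3.03 and 1.59 FPKM. The highest of the list, the dehydrin AT1G54410, was at 2093, 2209 and 1915 FPKM. The 13 other oil body family genes above 0 had medians of 0.17 and 0.02, with 8 higher and 5 lower in mms19-1 and 7 higher and 6 lower in abo4. Past 2-fold were HSD6, higher in mms19-1 (log2 ratio 1.78) and in abo4 (1.17), and the oleosin AT2G25890, lower in abo4 (-1.14), both named after their values were seen. The caleosin CLO3 was the highest of them, at 82.3, 108 and 54.3 FPKM.

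**Figure D4:**
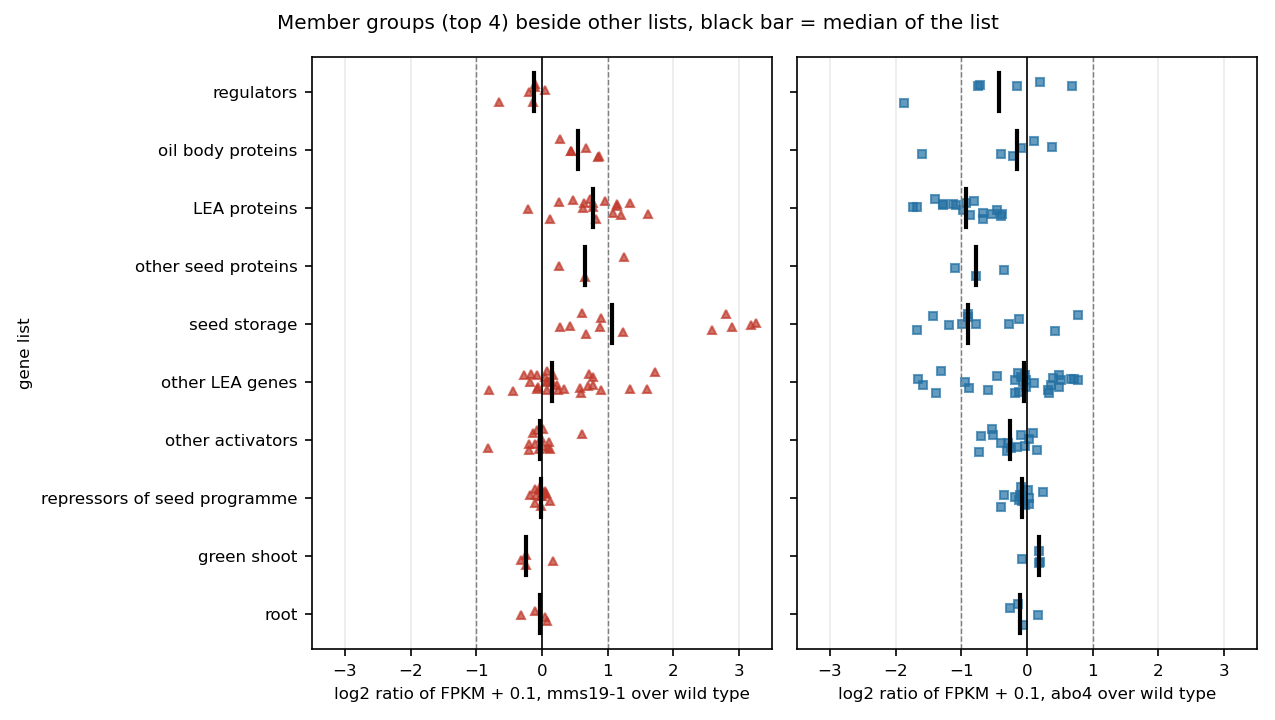
Log2 ratio of FPKM + 0.1 of mms19-1 (left) and abo4 (right) to the wild type (x axis) for the genes above 0 of each list (y axis), 1 point per gene, with the median as a black bar and the 2-fold limits dashed. Medians of the LEA group were 0.78 and -0.93 and those of the seed repressors -0.02 and -0.08.

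Marker genes of other tissue were read beside these values. MMS19 was at 10.1 FPKM in Col, 0.228 in mms19-1 and 9.01 in abo4, and ABO4, for which the RNA level is no check of a missense allele, was at 5.03, 6.95 and 8.09 FPKM. The 4 green shoot markers summed to 34550, 33388 and 37349 FPKM and the 4 root markers to 39.6, 39.4 and 36.2 FPKM. The 5 endosperm and early embryo markers summed to 3.27, 6.65 and 3.05 FPKM, with PHE1 at 0.813, 2.66 and 0.601, WOX2 at 2.40, 3.95 and 2.40, FIS2 and MEA under 0.1 and WOX8 listed at 0. The 3 flower markers were past 2-fold higher in both mutants, beside 2.45% of all loci in mms19-1 and 3.94% in abo4. Flower markers summed to 1.04, 4.00 and 5.79 FPKM, and the 4 tapetum markers to 0.252, 0.255 and 0.319. Their part in the values of the members was not tested. In RNA of whole seedlings, a different number of cells that hold a transcript and a different amount of it per cell cannot be told apart.

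The members lie on all 5 chromosomes, 9, 7, 10, 4 and 6 from chromosome 1 to 5. A gene on the other strand overlaps OLEO1, OLEO2, AT3G01570, LEA7, AT3G22490, TIP3;1 and TIP3;2, and since it is not stated whether strand was used in the counting, reads of the partner could be included in their values. None overlaps a gene on the same strand.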

How the data were processed

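The authors aligned 45-bp reads to TAIR10 with TopHat2 2.0.12 and deposited FPKM values from Cufflinks 2.0.1 and Cuffdiff, with no log transformation. Their handling of multiply aligned reads and of strand is not given in the sources used here, and it is not stated that the columns were scaled in 1 run. Of 34133 entries, 574 were left out where a locus had a larger entry. Each library pair was compared by log2(FPKM + 0.1) in Python 3.11.15 (numpy 2.4.6, pandas 2.3.3, scipy 1.17.1, matplotlib 3.10.9), with no test. All loci averaging 1 FPKM or more had median log2 ratios of -0.02 in mms19-1 and -0.01 in abo4. Library depth came from the commonest ratio of low values between libraries, and reads per member from whole-number steps guided by effective lengths in the RefSeq TAIR10.1 annotation (fragments of mean 200, SD 80 and at least 45 nt). The log2 ratios, 2-fold calls and intervals were tested on simulated counts, for genes with more reads than most members. The recovery of reads and of depth was not tested in this way. Values are given for the regulators and for members with at least 1 FPKM in a library or past 2-fold in a mutant. Gene names follow that annotation or general use. The members and lists were chosen with earlier results of these data known. Alternatives were pseudocounts of 0.01 and 1, a mean of at least 1 FPKM, a 4-fold limit, centring and summed entries, and, chosen after seeing the data, ratios of reads, a read minimum and the 0.1 to 30 FPKM range.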

Additional observations from a re-analysis of the deposited data

How the results depend on the processing

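The member medians against the wild type kept their direction under other pseudocounts, centring and summed entries. They also kept it with a mean of at least 1 FPKM and a minimum of 50 reads. None of 200 values of 25 named members reversed, while 10 moved, all with 1 FPKM added. A pseudocount cannot change the sign of a ratio, and the 36 members have 36 entries, so summing changed nothing. Centring shifted ratios only by the medians of -0.02 and -0.01 over loci averaging 1 FPKM or more. The lack of reversals was therefore fixed in advance and is no check. The 7 members higher by over 2-fold in mms19-1 became 8 with 0.01 FPKM added, 8 by ratios of reads, 2 with 1 FPKM added, 4 of 14 with a mean of at least 1 FPKM and 0 at a 4-fold limit. The 10 lower in abo4 became 15, 14, 3, 6 and 0 in the same order, and the 21 lower in abo4 than in mms19-1 became 25, 24, 10, 10 and 7. Among all loci with a mean of at least 1 FPKM, 1.03% were higher past 2-fold in mms19-1 and 1.90% lower in abo4. In abo4 against mms19-1, 2.31% of those loci were lower. No share over all loci is given for the other settings, so those recounts have no reference. With at least 50 reads, 7, 9 and 19 of 26 members were counted, with no share over all loci for comparison. The 0 higher in abo4 became 1 (LEC2) against either library with 0.01 FPKM added or with ratios of reads. With 1 FPKM added, the mms19-1 median of 0.65 became 0.30 and the abo4 median of -0.73 became -0.24. With 49 nt as the shortest fragment, the recovered reads of all members were equal. The length only guides the choice among whole-number steps, so little change was possible. For transcripts of 60 to 150 nt, 49 nt fitted better, with a share of 0.959 of values near whole reads against 0.361 at 45 nt. For transcripts of 300 to 3000 nt, the range of most members, the share was only 0.512 at 45 nt and 0.511 at 49 nt. No paired analysis was possible because each genotype has 1 library. Counts of under 10 reads, as for LEC2, CLO1 and AT3G22490, limit what can be compared.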
